A study of Mus musculus with 47 samples.

Results

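Read counts were compared between undifferentiated P19 cells after 9 h in 4-thiouridine (4sU) and the same cells without it, in 6 of the 47 SLAM-seq libraries of the series. P19 is a mouse embryonal carcinoma line that can be differentiated into neurons with retinoic acid, and undifferentiated cells are called D0. The members were chosen by label as the 3 D0 libraries of the anabolic (label uptake) assay at time 9 (libraries 70, 71 and 72) and the 3 at time 0 (libraries 55, 56 and 57). The cells at 9 h had received 20 µM 4sU and those at 0 h none, and RNA of both groups was alkylated with iodoacetamide before 3′ end sequencing. No D0 library of cells kept for 9 h without 4sU was analysed, so that exposure to 4sU and 9 h in culture cannot be told apart. The 18 other D0 libraries were used for comparison. They are 6 of the 2 middle time points of label uptake, labeled 1 and 3 but given as 3 and 6 h in the methods and called the second and the third here, and 12 of the catabolic assay, in which cells were labeled for 15 h, given as 13 h at another place in the study's text, and then chased with UTP. The 6 D6 libraries used, at day 6 of differentiation, came from cells given 500 µM 4sU or none. Nothing in the labels says whether the replicates were separate cultures, although the design text calls them biological, and p-values measure the spread between these libraries.

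4sU is a uridine analog that cells phosphorylate through the pyrimidine salvage pathway and build into new RNA. At high doses it is known to disturb processing of ribosomal RNA in the nucleolus and to activate the p53 response, in which p53 induces Cdkn1a, an inhibitor of the cell cycle, and Mdm2, its own negative regulator. A measurement of RNA half-lives by label uptake takes the level of each transcript as constant while the label is present. The read counts address this only for levels relative to other transcripts, and a change common to all would not be seen.

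Label uptake followed the labels. The share of covered T positions read as C was 0.163% ± 0.0334 at 0 h and 1.25% ± 0.0509 at 9 h (SD, n = 3 each). Reads with at least 1 conversion made up 3.87% ± 0.601 of all reads at 0 h and 25.05% ± 0.0405 of those at 9 h (SD, n = 3 each). The highest 0 h library had 4.54% and the lowest 9 h library 25.01%, and the groups were far apart. After 15 h the conversion rate was 1.42% ± 0.0628 (SD, n = 3), and at the second time point, 0.152% ± 0.00129 (SD, n = 3), it was as low as without 4sU.

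**Figure D1:**
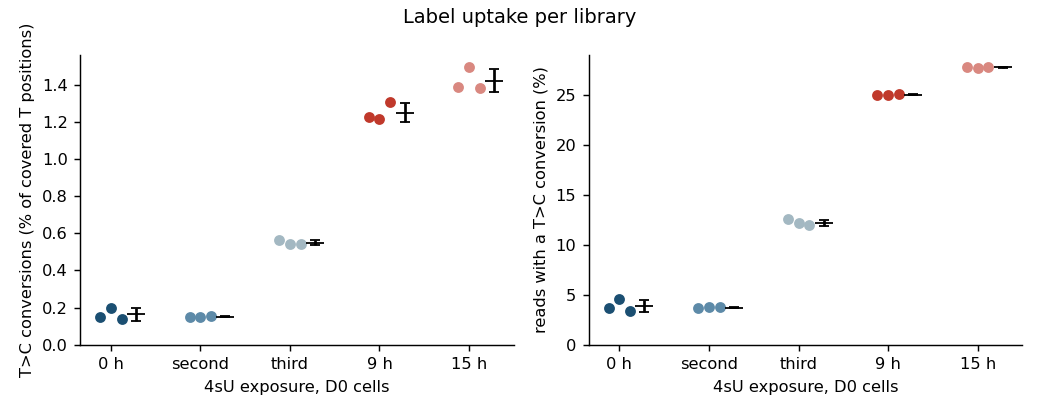
Label in each D0 library by time in 4sU, as T>C conversions in percent of covered T positions (left) and reads with a conversion in percent (right). Points are libraries and the bars beside them mean and SD of 3. The 9 h libraries stand near 25% of reads, and the 0 h and second time points near 4%.

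The libraries differed in how many genes they detected. Distinct 3′ UTR reads ranged from 5499405 to 7180848 at 0 h and from 6680757 to 11677046 at 9 h. Library 56, at 0 h, had the fewest, and 31.9% of its mapped reads lay on 3′ UTRs against 36.7% to 44.3% in the 9 h libraries. At least 1 read was found for 10859, 9816 and 10436 genes in libraries 55, 56 and 57, and for 11598, 11607 and 11449 genes in libraries 70, 71 and 72. At an equal depth of 3151479 reads the expected numbers were 10692, 9582 and 10235 at 0 h and 11458, 11367 and 11278 at 9 h. The 0 h libraries were thus all below the 9 h libraries at equal depth. They were 10615, 11221 and 11268 at the second time point and 11755, 11710 and 11585 at the third. The libraries of the third time point were thus above all 0 h libraries and those of the second overlapped with them. The 15 h libraries, from the catabolic assay, were at 10174, 10345 and 9860. Across the genes tested, log2 levels correlated at 0.893 to 0.933 between the 9 h libraries, at 0.761 to 0.854 between the 0 h libraries and at 0.799 to 0.903 between the groups, as Pearson's r over genes that are not independent. The part of this difference in detection in the results below was not tested.

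**Figure D2:**
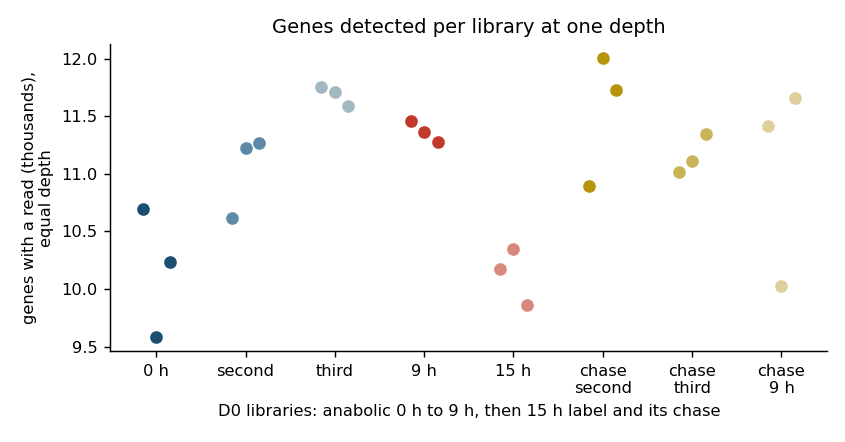
Expected number of genes with at least 1 read in each of the 24 D0 libraries at a depth of 3151479 reads, by group; points are libraries, and the axis does not start at 0. The 0 h and the 15 h libraries lie low, and the 9 h libraries between 11278 and 11458.

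No transcript passed the test between 9 h and 0 h. Of 16570 mRNA transcripts tested with edgeR's quasi-likelihood test, 0 (0%) had a Benjamini-Hochberg adjusted p under 0.05 in either direction, and 418 (2.52%) had an unadjusted p under 0.05. limma-voom called 0 as well, with 579 at an unadjusted p under 0.05. DESeq2 called 10 transcripts, 8 higher and 2 lower at 9 h, with 571 at an unadjusted p under 0.05. The median log2 change over all transcripts was 0.02, a value that the scaling largely sets. Taken as 1 transcript per gene, 10589 genes were tested, of which 246 (2.32%) had an unadjusted p under 0.05. All 9 h libraries lay above all 0 h libraries for 613 genes (5.79%) and below them for 379 (3.58%). With 1 library left out they ranged from 890 (without 70) to 1518 (without 55) and from 592 (without 70) to 1127 (without 56), since fewer libraries overlap less often. Over all transcripts the shares were 5.94% and 3.6%. With 3 libraries in each group some genes separate without any change, so a lack of overlap alone is no call. The excess of higher genes lay among genes with fewer reads and turned round among those with many. With a mean under 20 reads per library, 72 genes lay above and 2 below, and with 20 to 100 reads 222 and 62. The counts were 221 and 182 with 100 to 500 reads. They were 85 and 105 with 500 to 2000 reads, and 13 and 28 with more. Among genes with under 20 and with 20 to 100 reads, 90% and 51.3% had 0 reads in at least 1 library. Some of these passed the filter on low counts only through the 9 h group, so their split is a description only. The shares of all genes given beside the lists below are not split by reads.

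How large a change could have gone unseen depended on the reads of a gene. The 95% interval of the change lay within 2-fold in both directions for 2277 genes (21.5%) and within 1.5-fold for 226 (2.13%), or for 21.6% and 2.18% of transcripts. Among the 673 genes with a mean of 2000 or more reads per library, the interval lay within 2-fold for 589 (87.5%), and 9 in 10 of the fitted log2 changes fell between -0.39 and 0.23. Among the 2491 genes with 500 to 2000 reads, it did so for 1467 (58.9%). With 100 to 500 reads this held for 221 of 4509 genes, and with fewer reads for none of the 2596 genes with 20 to 100 and the 320 with under 20. The median half-width of the interval was 0.55 on the log2 scale at 2000 reads and over, 1.30 at 100 to 500 and 3.46 at 20 to 100. The common biological coefficient of variation was 0.718. For most genes of low expression a change of several-fold was thus not detectable.

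**Figure D3:**
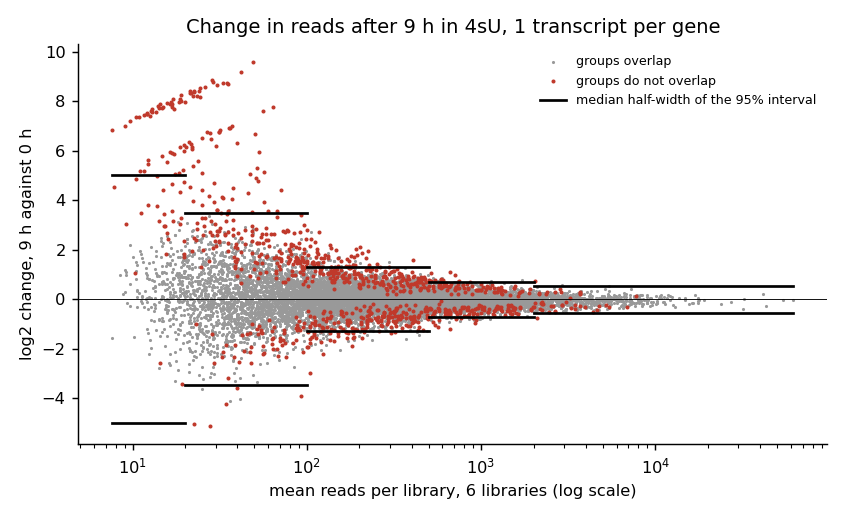
Log2 change in reads, 9 h against 0 h, by mean reads per library (log axis), for 10589 genes. Red points are genes whose 9 h and 0 h libraries do not overlap, and black lines give the median half-width of the 95% interval, which narrows from 4.99 under 20 reads to 0.55 at 2000 reads and over.

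The genes with the most reads showed no change that passed the test. Tubb5, a beta tubulin, had 43931, 48283 and 46789 reads at 0 h and 49739, 82379 and 54259 at 9 h. Scaled for depth, library 71 being the deepest, these levels overlapped, with a log2 change of -0.03 ± 0.22 (SE) and an interval of -0.53 to 0.48. Actb, cytoplasmic beta actin, changed by -0.04 ± 0.29 (SE) and Eef2, the elongation factor that moves the ribosome along the mRNA, by -0.12 ± 0.26 (SE). Rpl8, a protein of the large ribosomal subunit, changed by 0.00 ± 0.30 (SE), and its levels were highest in library 56 at 0 h and library 72 at 9 h. These genes were chosen after their values were seen, as those with the most reads.

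The 5 genes with the smallest p among those higher at 9 h were Galns, Pitpnm2, Nfic, Tgfb3 and Actn3, and 4 of them had almost no reads at 0 h. Galns, a lysosomal sulfatase (3′ UTR at chr8:122578237-122579110, mm10, minus strand), had 1, 0 and 0 reads in libraries 55, 56 and 57 and 134, 198 and 50 in libraries 70, 71 and 72. Scaled for depth this is a ratio of 286 with a 95% counting interval of 50.9 to 11308. Its level was 0, 6.88 and 4.46 CPM (TMM-scaled counts relative to library size) at the second time point, 3.86, 7.72 and 7.68 CPM at the third and 3.71, 0 and 1.63 CPM after 15 h.

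Tgfb3, a ligand of the TGF-beta family (chr12:86056743-86057779, minus strand), had 0 reads in all 0 h libraries and 177, 63 and 54 at 9 h. Against a floor of 3 reads over the 0 h libraries together, it was at least 73.3-fold higher. Actn3, an actin crosslinker of fast muscle fibers (chr19:4861216-4861344, minus strand), had 0 reads at 0 h and 64, 125 and 64 at 9 h, at least 63.04-fold higher against the same floor. Pitpnm2, a membrane-associated phosphatidylinositol transfer protein (chr5:124118689-124121262, minus strand), had 0, 0 and 1 reads at 0 h and 28, 176 and 133 at 9 h. Pitpnm2 was at 11.8, 11.5 and 10.6 CPM already at the second time point, where the conversion rate was that of unlabeled cells. Tgfb3 and Pitpnm2 had reads in each of the 21 other D0 libraries, while Galns and Actn3 were at 0 in some of them. DESeq2 gave them adjusted p-values of 0.00385 for Galns and Tgfb3 and 0.0118 for Actn3 and Pitpnm2, whereas edgeR gave 1.00 for all. With 0 or 1 reads over the 0 h libraries, these genes passed the filter on low counts only through the 9 h group. Their ratios and p-values are thus a description and no support for a change.

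Nfic, a transcription factor of the nuclear factor I family (chr10:81396191-81403377, minus strand), was the only one of the 5 with more than a few reads at 0 h. It had 96, 49 and 79 reads at 0 h and 383, 474 and 267 at 9 h, or 8.13 ± 1.03 and 31.6 ± 5.04 CPM (SD, n = 3). Every 9 h library was above every 0 h library, and the log2 change was 1.96 ± 0.47 (SE, edgeR, adjusted p = 1.00). Nfic was at 20.6 to 28.04 CPM at the second time point and at 18.3 to 26.6 CPM at the third, and after 15 h at 36.4, 9.25 and 29.4 CPM. The 0 h libraries were the lowest of all 24 D0 libraries for this gene.

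Genes read at 9 h and hardly at 0 h were counted over all genes tested. At most 3 reads in the 0 h libraries together were found for 99 genes, each of which had reads in all 3 libraries at 9 h, and at most 3 reads in the 9 h libraries for 0 genes. Such genes passed the filter on low counts only through the 9 h group. Without library 55, 56 or 57 the first count was 425, 179 or 257. The second was 7, 5 or 6 without library 70, 71 or 72. Of these 99 genes, 53 to 72 had a read in each library of the second time point, 84 to 90 in each of the third and 43 to 50 in each 15 h library. Since the genes were chosen for few reads at 0 h, these numbers are a description and bear no comparison with the 0 h libraries.

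The 5 genes with the smallest p among those lower at 9 h were Glis3, Ddc, Prdx5, Acad9 and Cbs. Glis3, a Krüppel-like zinc finger transcription factor (chr19:28258851-28262978, minus strand), had 129, 125 and 257 reads at 0 h and 15, 22 and 9 at 9 h, or 18.97 ± 7.14 and 1.25 ± 0.240 CPM (SD, n = 3). The groups did not overlap and the log2 change was -3.90 ± 0.80 (SE, edgeR, adjusted p = 1.00). It was the 1 gene that DESeq2 called lower, with an adjusted p of 0.000911. Glis3 was at 0, 0 and 7.61 CPM at the second time point and 0, 8.93 and 0 CPM after 15 h.

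Ddc, the decarboxylase that makes dopamine and serotonin, varied less. It had 751, 804 and 963 reads at 0 h and 427, 645 and 414 at 9 h, or 95.8 ± 22.7 and 41.8 ± 3.73 CPM (SD, n = 3). The groups did not overlap, and the log2 change was -1.20 ± 0.29 (SE, edgeR, adjusted p = 1.00, DESeq2 adjusted p = 0.111). Ddc lay between these levels at the second time point, at 69.1 to 75.8 CPM. It was at 55.98, 79.9 and 52.1 CPM at the third and at 62.1 to 65.4 CPM after 15 h in the catabolic assay.

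Prdx5, a peroxiredoxin that reduces peroxides, was at 46.1 ± 15.7 CPM (SD, n = 3 each) at 0 h and 18.03 ± 2.36 CPM at 9 h. Acad9, a mitochondrial protein needed for assembly of complex I, was at 26.8 ± 4.79 and 8.92 ± 1.73 CPM (SD, n = 3). Cbs, which makes cystathionine from homocysteine, was at 41.6, 105 and 58.3 CPM at 0 h and at 29.6, 27.1 and 30.7 CPM at 9 h. In all 3 the groups did not overlap. For all 3, library 56 was the highest of the 0 h libraries. For Cbs the second and the third time points, at 24.8 to 36.4 CPM, were as low as 9 h. The edgeR adjusted p was 1.00 for each.

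**Figure D4:**
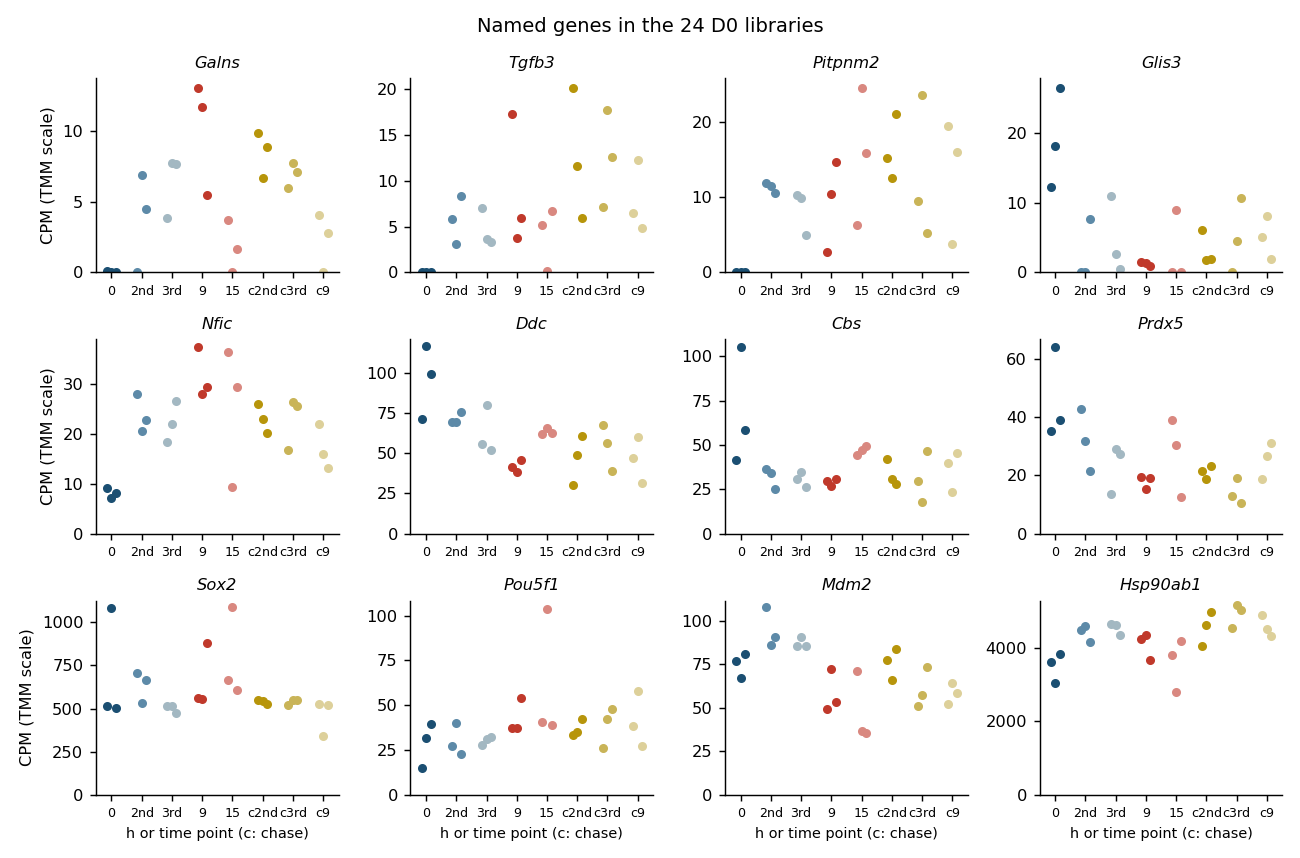
Levels of 12 genes as TMM-scaled CPM in each of the 24 D0 libraries, by time in 4sU and then by chase time (c); points are libraries, and every axis starts at 0. For Galns, Tgfb3, Pitpnm2 and Nfic the 0 h libraries are the lowest group, for Glis3, Ddc, Cbs and Prdx5 the highest, and Sox2, Pou5f1, Mdm2 and Hsp90ab1 overlap between 0 and 9 h.

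Of 548 genes on 19 lists, 464 were tested, 0 passed the test in edgeR, and 2 had an unadjusted p under 0.05, beside 2.32% of all genes. DESeq2 and limma-voom called 0 of them as well, with 5 and 4 at an unadjusted p under 0.05. Median log2 changes of the lists ran from -0.23 to 1.02, beside 0.01 over all genes. In bulk RNA a change in the make-up of the culture and a change per cell cannot be told apart.

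The pluripotency genes, which hold cells undifferentiated, were measured first. Both groups are D0, so changes between them cannot check that label. Of 27 genes 21 were tested, with 10 positive and 11 negative changes and a median of 0.00. Sox2, a transcription factor of stem and neural progenitor cells, had 5406, 7498 and 4860 reads at 0 h and 5738, 9415 and 7984 at 9 h. Its log2 change was -0.08 ± 0.34 (SE) with an interval of -0.83 to 0.68, and the groups overlapped. Pou5f1, which encodes OCT4, was at 14.6, 31.4 and 39.2 CPM at 0 h and 37.1, 37.4 and 53.9 CPM at 9 h, with overlap and a log2 change of 0.59 ± 0.44 (SE). Nanog had only 72, 2 and 57 reads at 0 h and 47, 112 and 27 at 9 h, and its interval of -2.91 to 3.15 excluded little. Lin28a, Sall4, Otx2, Dnmt3b, L1td1 and Trim71 had intervals within 2-fold. Zfp42, Dppa3, Dppa4, Dppa5a, Fgf4 and Tfcp2l1 were below the filter on low counts. At 0 h and not scaled for depth, Pou5f1 had 153, 217 and 380 reads at D0 and 3, 0 and 2 at D6. In the same D6 libraries Sox2 had 3313, 3264 and 4359 reads and Nanog 0 in each.

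The list member with an unadjusted p under 0.05 among the pluripotency genes was Tdh, threonine dehydrogenase. It had 1, 0 and 0 reads at 0 h and 36, 46 and 18 at 9 h, a ratio of 74.8 with a counting interval of 13.1 to 2982, and belongs to the 99 genes above. That interval does not hold the spread between libraries. Tdh was at 1.98 to 3.51 CPM at 9 h, beside 3.31 to 7.85 CPM at the second time point and 7.62 to 13.9 CPM at the third. After 15 h it was at 5.65, 0.649 and 3.47 CPM. Esrrb, a nuclear receptor, had 108, 81 and 23 reads at 0 h and 0, 22 and 6 at 9 h without overlap, with a log2 change of -3.60 ± 1.68 (SE, edgeR, adjusted p = 1.00). Of the 20 neuronal markers 17 were tested, with a median of -0.05, and of the 18 endoderm and mesoderm markers only 4. Of both lists 0 members lay above or below all 0 h libraries, beside 5.79% and 3.58% of all genes.

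The p53 targets did not pass the test. Of 30 genes 21 were tested, 16 with a positive and 5 with a negative change and a median of 0.19, and 2 lay above and 1 below all 0 h libraries, beside 5.79% and 3.58% of all genes. Mdm2 was at 77.1, 67.2 and 80.8 CPM at 0 h and 49.1, 72.1 and 53.2 CPM at 9 h. Its log2 change was -0.37 ± 0.28 (SE) with an interval of -0.99 to 0.26, so that a 2-fold rise of Mdm2 lay outside it. Cdkn1a was below the filter, with 41, 0 and 30 reads at 0 h and 2, 1 and 0 at 9 h. The ratio of 0 h to 9 h for Cdkn1a was 31.7, with a counting interval of 10.4 to 157 that does not hold the spread between libraries, and 1 of the 0 h libraries had 0 reads. Cdkn1a was at 3.91, 0 and 3.09 CPM at 0 h and at 3.88, 0 and 3.88 CPM after 15 h. It was at 0, 2.70 and 1.22 CPM at the second time point and 0.460, 1.02 and 2.21 CPM at the third. Zmat3, an RNA-binding p53 target, changed by 0.07 ± 0.40 (SE). Phlda3 had the lowest log2 change of the p53 targets tested, -1.51 ± 0.79 (SE), with overlap and an interval of -3.30 to 0.28. Ddb2, of DNA damage recognition, had 0, 0 and 9 reads at 0 h and 14, 67 and 23 at 9 h, and Ei24, a protein of the endoplasmic reticulum, was lower in all 9 h libraries, at 27.5 ± 14.7 and 12.01 ± 0.182 CPM (SD, n = 3). For 19 of the 21 the interval went past 2-fold.

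The integrated stress response, heat shock and ER chaperone genes and the NRF2 targets were covered better, but the interferon response was not. Of 35 integrated stress response genes tested, 17 had a positive and 18 a negative change, the median was -0.02, and 13 had an interval within 2-fold. Atf4, the transcription factor at its center, changed by 0.06 ± 0.33 (SE) and Asns, asparagine synthetase, by -0.02 ± 0.24 (SE). Trib3 had the lowest log2 change of the list, -2.05 ± 1.03 (SE), with overlap and an interval of -4.36 to 0.26. Slc7a1, a transporter of cationic amino acids, was the second list member with an unadjusted p under 0.05. It was at 66.2, 114 and 106 CPM at 0 h and 42.9, 63.8 and 61.2 CPM at 9 h without overlap, with a log2 change of -0.77 ± 0.31 (SE, edgeR, adjusted p = 1.00). Aars and Psat1 were also lower in all 9 h libraries, with changes of -0.29 ± 0.19 and -0.33 ± 0.22 (SE). Of the list 0 members thus lay above and 3 below all 0 h libraries, beside 5.79% and 3.58% of all genes.

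Of 15 heat shock genes tested, 11 had an interval within 2-fold and the median change was -0.10. The reads of this list together made up 1.10% ± 0.0252 of the reads on genes at 0 h and 1.18% ± 0.0261 of those at 9 h (SD, n = 3 each), and this was the 1 list of 19 whose share did not overlap between the groups. Hsp90ab1, the constitutive cytosolic HSP90, held the largest number of them, with 38092, 21005 and 37410 reads at 0 h and 43729, 73863 and 33410 at 9 h. On the TMM scale Hsp90ab1 overlapped, with a log2 change of 0.23 ± 0.18 (SE) and an interval of -0.17 to 0.62. It was at 3043 to 3857 CPM at 0 h and 3679 to 4367 CPM at 9 h. At the second time point, where the conversion rate was that of unlabeled cells, it was at 4163 to 4610 CPM. After 15 h it was at 2801 to 4190 CPM. The median level of the list's members overlapped between the groups as well. Dnajb1, a heat-inducible HSP40, changed by 0.00 ± 0.27 (SE) and Hsph1 by 0.24 ± 0.23 (SE). Of the tested members 6 had a positive and 9 a negative change, among the latter Hspd1, at -0.36 ± 0.22 (SE), and Ahsa1, at -0.32 ± 0.27 (SE). Hspd1 was lower in all 9 h libraries. Hspa1a, Hspa1b and Hspa8 were below the filter.

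The 17 ER chaperone genes tested had a median change of 0.02 and the 19 NRF2 targets, which answer oxidative stress, one of 0.01. Calr, a chaperone of the endoplasmic reticulum, was at 543 ± 61.4 CPM at 0 h and 461 ± 19.2 CPM at 9 h (SD, n = 3 each), without overlap and with a log2 change of -0.24 ± 0.19 (SE). Of the interferon response genes 6 of 19 were tested, and none had an interval within 2-fold.

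Genes of the nucleolus, where 4sU at high doses is known to act, were among the best measured. Of 44 tested, 24 had a positive and 20 a negative change, the median was 0.07 and the range -0.58 to 0.74, and 25 had an interval within 2-fold. Ncl, which encodes nucleolin, changed by 0.17 ± 0.19 (SE) and Npm1, nucleophosmin, by -0.14 ± 0.19 (SE). Polr1c, a subunit of RNA polymerase I, changed by -0.22 ± 0.25 (SE), and Ubtf and Rrn3, its initiation factors, by 0.27 ± 0.30 and 0.10 ± 0.30 (SE). Gnl3, nucleostemin, was lower in all 9 h libraries, at 122 ± 11.5 and 91.4 ± 10.0 CPM (SD, n = 3), with a log2 change of -0.42 ± 0.23 (SE). Of the 44 genes 0 lay above and 1, Gnl3, below all 0 h libraries, beside 5.79% and 3.58% of all genes.

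Genes of uridine uptake and pyrimidine metabolism had 12 positive and 11 negative changes among 23 tested, a median of 0.00 and 0 members above or below all 0 h libraries, beside 5.79% and 3.58% of all genes. Uck2, the uridine kinase, was at 65.5, 80.7 and 58.3 CPM at 0 h and 79.8, 90.9 and 99.8 CPM at 9 h, with a log2 change of 0.40 ± 0.26 (SE) and an interval within 2-fold. Tk1, thymidine kinase, changed by -0.56 ± 0.30 (SE). The 71 cytosolic ribosomal protein genes tested had a median of -0.08, and 31 had an interval within 2-fold. Rps21 changed by 0.42 ± 0.26 (SE) and Rpl6 by -0.35 ± 0.23 (SE), and neither separated the groups. The share of reads on this list was 3.00% to 3.76% at 0 h and 2.96% to 3.51% at 9 h.

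Genes that respond to handling of cells and to metabolism gave no call either. The 25 immediate early genes tested, which serum and medium change induce, had a median of 0.10 and 0 members above or below all 0 h libraries, beside 5.79% and 3.58% of all genes. Dusp6, a phosphatase of ERK, changed by 0.54 ± 0.36 (SE). The 22 targets of YAP and SRF had a median of 0.14, and Cnn2, a calponin, was at 189, 60.1 and 87.6 CPM at 0 h and 231, 204 and 140 CPM at 9 h, with overlap. Of the 20 hypoxia targets 16 had a negative change, with a median of -0.23, and of the 20 glycolysis genes 13, with a median of -0.23. With the second time point as the control these medians were 0.06 and 0.03. Pfkm, the muscle-type phosphofructokinase, was at 62.9 ± 2.72 CPM at 0 h and 43.02 ± 5.77 CPM at 9 h (SD, n = 3 each), while Slc2a3, a glucose transporter, was at 224.2 ± 60.3 and 296 ± 8.34 CPM (SD, n = 3), both without overlap.

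The 24 genes of cholesterol synthesis had a median of 0.08, the 35 of DNA replication one of -0.07 and the 32 of mitosis one of 0.15. Ccne1, the cyclin of the G1 to S transition, was at 87.7, 41 and 48.9 CPM at 0 h and 88.2, 101 and 97.7 CPM at 9 h, and Cdt1, a licensing factor of replication origins, at 102 ± 17.4 and 133 ± 5.08 CPM (SD, n = 3). Ube2c, a ubiquitin-conjugating enzyme of mitotic exit, was at 572 ± 71.7 and 453 ± 53.96 CPM (SD, n = 3). In these 3 the groups did not overlap, with log2 changes of 0.69 ± 0.33, 0.37 ± 0.23 and -0.34 ± 0.20 (SE). None passed the test. All 9 h libraries lay above the 0 h libraries for 2 and below them for 2 of the DNA replication genes, for 3 and 2 of the mitosis genes and for 3 and 2 of the cholesterol genes, beside 5.79% and 3.58% of all genes. The counts were 2 and 1 in glycolysis and 1 and 1 among the pluripotency genes. They were 1 and 0 among the YAP and SRF targets, the NRF2 targets and the ribosomal proteins, 0 and 1 among the ER chaperones, the heat shock genes and the hypoxia targets, and 0 and 0 in the interferon response.

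**Figure D5:**
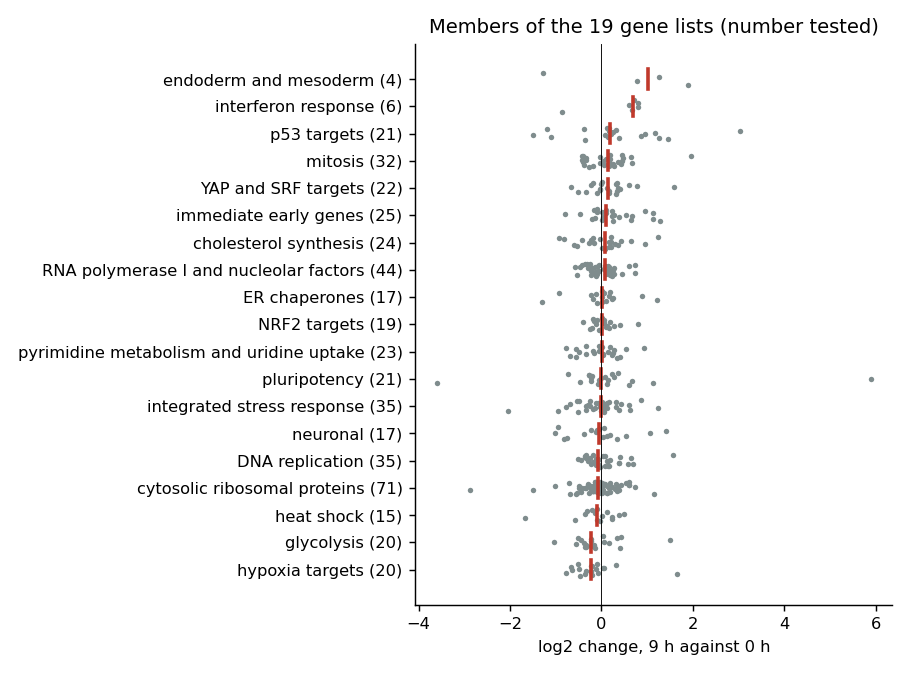
Log2 change in reads, 9 h against 0 h, for each tested member of the 19 gene lists (points), with the list's median (red line) and its number tested in brackets. Medians lie between -0.23 and 0.19 except in the lists of 4 and 6 genes, at 1.02 and 0.69.

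Whether transcripts that take up more label lose or gain reads was described over 10205 genes. They were put into 5 groups of equal size by the conversion rate at the third time point, which the comparison does not use. The median log2 change was -0.08 in the least labeled group, where the median rate was 0.160%, and 0.07 in the most labeled one, where it was 1.21%. Spearman's rho across genes, which are not independent, was 0.0875. Library by library, the most labeled genes stood from -0.21 to 0.01 relative to the least labeled at 0 h and from -0.03 to 0.12 at 9 h on the log2 scale, and these ranges overlap. Without library 56 the difference in median change fell from 0.15 to 0.06. By the share of label kept after 9 h of chase, rho was -0.060 over 8772 genes, by 3′ UTR length it was 0.047 and by the T share of the 3′ UTR 0.0044. The genes with the highest T share stood, relative to those with the lowest, at -0.52 in library 56 and -0.33 in library 72. In the other libraries of the comparison they stood from 0.14 to 0.27. The mean number of reads gave a rho of -0.13, and the genes with the fewest reads had the highest median change, 0.27 against -0.04 in those with the most. Relative to the former, the latter stood at -0.29, 1.22 and 0.04 in libraries 55, 56 and 57. At 9 h they stood from -0.44 to -0.20, and the groups overlap. Genes that passed the filter only through the 9 h group were not left out.

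A second contrast that shares no library with the first compared the 3 libraries after 15 h in 4sU with the 3 of the second time point, where no label could be measured. The first came from the catabolic and the second from the anabolic assay, so that assay and exposure cannot be told apart. edgeR called 0 of 16193 transcripts (0%), with 1064 (6.57%) at an unadjusted p under 0.05. limma-voom called 0, with 1451 at an unadjusted p under 0.05, and DESeq2 called 73, of which 29 were higher and 44 lower. Of 10090 genes tested in both contrasts 49.5% changed in the same direction, and of the 204 with an unadjusted p under 0.05 at 9 h 117 did (57.4%). An unadjusted p under 0.05 was found in the second contrast for 684 of these genes and in both contrasts for 18, of which 13 had the same direction, among them Celsr3, an adhesion cadherin, and Ppp6r3, a regulatory subunit of protein phosphatase 6. Ppp6r3 changed by -0.53 ± 0.21 (SE) at 9 h and -0.57 ± 0.19 (SE) after 15 h. Celsr3 had 0, 2 and 1 reads at 0 h and 51, 188 and 79 at 9 h, and after 15 h 6.71, 40.6 and 6.94 CPM. In the first contrast Celsr3 passed the filter on low counts only through the 9 h group. Both were chosen after their values were seen.

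The 5 genes with the smallest p in each direction at 9 h had these values in the second contrast, except Glis3, which was not tested there. The log2 change after 15 h was 0.08 ± 0.54 (SE) for Nfic, -0.16 ± 0.26 (SE) for Ddc, -0.23 ± 0.50 (SE) for Prdx5, -0.50 ± 0.64 (SE) for Acad9 and 0.57 ± 0.35 (SE) for Cbs. For Tgfb3 it was -0.52 ± 1.45 (SE), for Pitpnm2 0.47 ± 0.68 (SE), for Galns -1.07 ± 2.13 (SE) and for Actn3 -3.28 ± 2.06 (SE), and thus opposite in sign to the change at 9 h for Tgfb3, Galns, Actn3 and Cbs. Among the list genes described above, the change had the same sign in both contrasts for Ei24, at -1.45 ± 0.62 (SE), Mdm2, at -0.98 ± 0.33 (SE), and Pou5f1, at 1.04 ± 0.45 (SE), and the opposite sign for Ccne1, at -0.98 ± 0.32 (SE). Rpl8, at 0.00 at 9 h, was at 0.63 ± 0.26 (SE). Esrrb was at 7.85, 1.65 and 1.57 CPM at the second time point and at 0 in all 15 h libraries. None of these 6 passed the adjusted threshold in edgeR, and they were picked here for an unadjusted p under 0.05 in the second contrast.

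The second and the third time points share the 0 h libraries with 9 h, and their values are given side by side only. They come from 1 fit of all 12 anabolic D0 libraries, in which the 9 h contrast had 1205 transcripts at an unadjusted p under 0.05, against 418 in the fit of 6. Against 0 h, edgeR called 0 of 18136 transcripts (0%) at either, with 1526 (8.41%) and 1609 (8.87%) at an unadjusted p under 0.05, and limma-voom called 0 with 1602 and 1882. DESeq2 called 131 higher and 34 lower at the second time point and 104 higher and 38 lower at the third. At the second time point, where the conversion rate was that of unlabeled cells, Nfic differed from 0 h by 1.54 ± 0.37 (SE), Cbs by -1.10 ± 0.34 (SE) and Ddc by -0.43 ± 0.24 (SE), beside 1.95, -1.23 and -1.20 at 9 h in the same fit.

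At D6, where the dose was 500 µM and thus differed along with the state, the change from 0 to 9 h was compared with that at D0 in 1 fit. Distinct 3′ UTR reads at D6 ranged from 3602511 to 6977661 at 0 h and from 1504166, in library 53, to 4466071 at 9 h. Of the D6 reads at 9 h, 42.8% to 57.5% had a conversion. edgeR called 0 of 17860 transcripts (0%) for the difference, with 925 (5.18%) at an unadjusted p under 0.05, limma-voom called 0 with 1310, and DESeq2 called 114, 34 of them with a positive and 80 with a negative difference. The smallest p-values of a negative difference were those of Celsr3, Timp3 and Ccdc102a, and of a positive one Ercc1, Pou3f3 and Grrp1. Timp3, an inhibitor of matrix metalloproteinases, had 789, 396 and 866 reads at 0 h and 1199, 1593 and 1141 at 9 h at D0, and 41, 85 and 117 and 1, 3 and 1 at D6. The difference was -5.40 ± 0.99 (SE, edgeR, adjusted p = 0.216). Ercc1, of nucleotide excision repair, had 181, 36 and 46 reads at 0 h and 71, 129 and 64 at 9 h at D0, and 0 at 0 h and 148, 105 and 25 at 9 h at D6.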

How the data were processed

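P19 cells were labeled with 4sU, and RNA was alkylated and sequenced from the 3′ end as single-end reads (QuantSeq). The authors mapped reads to mm10 with SLAMdunk 0.3.3 and deposited raw counts per 3′ UTR interval, with no normalization: counts of reads, of reads with a conversion, of covered T positions and of conversions. The deposited files also hold, per interval, a CPM that the authors' run scaled to all mapped reads and a fraction of covered T positions converted; both were recomputed here from the counts. Reads carry no molecular identifiers, so that intervals from counts cover counting error only.

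Counts were summed per RefSeq mRNA transcript (28190, of 18913 genes), TMM-scaled, filtered with filterByExpr and tested, two-sided, with edgeR 4.0.16 (glmQLFit, glmQLFTest, on only the libraries compared, but on all 12 anabolic D0 libraries for the second and the third time points) in R 4.3.3, with Benjamini-Hochberg adjustment over all transcripts at 0.05. Distinct transcripts can share a 3′ UTR and its reads. Whether counting used strand is not given in the sources used here. The SE is the fitted change over the square root of F, and 95% intervals use the t distribution with the test's degrees of freedom. DESeq2 1.42.0 and limma 3.58.1 (voom) were alternatives. Genes are given by the transcript with the highest mean count. CPM are on a TMM scale over the 24 D0 libraries. Groups do not overlap where every 9 h library is above, or below, every 0 h library in CPM. Depth was equalised by the expected number of genes with a read. Label content required 1000 covered T positions. Figures used matplotlib 3.10.9 and Python 3.11.15. The tests were tested on simulated data.

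Genes were named by rule: the 8 largest changes per direction that passed the test with at least 50 reads (none did), the 5 smallest p per direction, the 3 smallest p of each list with Pou5f1, Sox2, Nanog, Cdkn1a and Mdm2, and the 3 smallest p per direction of the difference between states; of the list genes so named, a part is described. Other list genes given as examples, such as Atf4, Asns, Ncl, Npm1, Polr1c, Dnajb1, Hsph1, Psat1 and Zmat3, were chosen after their values were seen. The members, lists and tests were chosen with earlier results of these data known. Alternatives were other scalings, filters, tools and units, all 12 anabolic D0 libraries, reads without a conversion and each library left out. Chosen after seeing the data were the second time point as the control, the alternatives for lists, label content and overlap, and the genes named for DESeq2 calls or most reads.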

Additional observations from a re-analysis of the deposited data

Results flagged for a closer look

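Of 86 named genes 3 separated in opposite directions in the 2 states, with every 9 h library above every 0 h library in depth-scaled reads at D0 and every one below at D6, or the reverse, beside 52 of 10567 genes (0.492%). The named genes were partly chosen for their values, Timp3 for its small p for the difference between the states, and Calr and Cdt1 for theirs at 9 h at D0 within their lists. The dose of 4sU differed between the states. The difference in log2 change, D6 minus D0, was 0.85 ± 0.34 (SE, edgeR interaction term, adjusted p = 0.865) for Calr, which was lower at D0 and higher at D6. It was -1.38 ± 0.60 (SE, edgeR, adjusted p = 0.912) for Cdt1 and -5.40 ± 0.99 (SE, edgeR, adjusted p = 0.216) for Timp3, which were higher at D0 and lower at D6. None passed the adjusted threshold. Groups of 3 libraries are too small for a test of outlying samples.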

How the results depend on the processing

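No paired analysis was possible because the libraries carry numbers that no groups share. Between 9 and 0 h at D0, edgeR called 0 transcripts with other scalings, filters, units, all 12 anabolic libraries, the second time point as the control, reads without a conversion and without any 1 library. The number at an unadjusted p under 0.05 ranged from 232 without library 70 to 1205 in the fit of all 12, and was 1111 without library 55 and 877 without library 56. DESeq2 called 10 transcripts, and 165 at the second time point, 142 at the third, 73 after 15 h and 114 for the difference between states. Leaving out each library, edgeR called 0 to 43 at the second time point (43 without library 55, 6 without 56, 5 without 57), 0 to 61 at the third (61 without 55, 6 each without 56 and 57), 0 to 5 after 15 h (5 without library 26) and 0 to 5 for the difference between states (5 each without D6 libraries 39 and 53, 1 without 56, 2 without 57). Without a filter on low counts it called 2 after 15 h. The difference in median change between the most and the least labeled genes was -0.0084 with reads without a conversion, against 0.15, since that setting removes labeled reads by construction, and from 0.058 to 0.19 without 1 library. The cause of the other differences was not tested. Of 323 list medians under the alternatives 45 moved by more than the spread between libraries. That of the p53 targets ran from 0.07 with the second time point as the control to 0.97 with limma-voom and was 0.55 without library 55, that of the immediate early genes from -0.10 to 0.45, and that of the endoderm and mesoderm markers from 0.29 to 1.93, the last without library 55. The median of 16 of the 19 lists changed sign in at least 1 setting, that of glycolysis ranging from -0.30 to 0.03 and that of the hypoxia targets from -0.30 to 0.06. Of 84 named genes tested, 28 changed sign in at least 1 setting. Low counts limit the intervals of most genes, and the number of genes detected differs between the groups.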
